A study of Rattus norvegicus with 8 samples.

Results

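A set of 9 genes of the T cell receptor and its costimulation was followed in whole blood of male Wistar rats: the receptor chains Cd3e, Cd3d and Cd3g, the coreceptors Cd4 and Cd8a, the kinase Lck, the costimulators Cd28 and Icos, and the transcription factor Gata3. The members were taken by name. All probe sets whose platform annotation gave exactly 1 gene symbol equal to one of these names were used, which gave 15 probe sets for 9 genes, of 31042 transcript probe sets and 14217 named genes on the array. A probe set is a group of short probes read as 1 value. Cd8a and Icos had 3 probe sets each, Cd3e and Gata3 had 2 each, and the other 5 genes had 1.

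The rats were bought at 7 weeks of age, acclimated on the normal diet (CE-2), and then stayed on it or were moved to a high-fat diet (Quick fat) for 8 weeks. Each diet group had 10 rats, blood was taken on day 56 after an overnight fast, and 4 arrays of each diet were analysed here. A further group, given mulberry leaf powder in the high-fat food, is not analysed here. Titles number the arrays as biological replicates without saying whether animals were pooled, so the p-values measure the spread between these arrays. Red cell, neutrophil and pan-leukocyte markers of blood were bright, with mean levels of 15.09 for Hbb, 11.59 for S100a9 and 10.87 for Ptprc.

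The T cell receptor recognises antigen through chains that differ between T cells, and these are held at the surface by the invariant CD3 chains, which carry the signal into the cell. CD4 or CD8 binds the presenting molecule and brings the kinase LCK to the CD3 tails. CD28 and ICOS, related receptors, supply the second signal that a T cell needs for full activation. GATA3 is needed for T cell development and for type 2 helper cells. In the rat, CD4 is also carried by monocytes and CD8A by many natural killer cells, and GATA3 is also expressed by basophils and mast cells.

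The promoters of the members that later showed the closest common pattern over the arrays are shown with those of a further chain and the kinase, so that the letters can be set beside the values. Each is 250 bases before to 50 bases after the annotated start, 5′ to 3′, from RefSeq on the GRCr8 rat assembly. The table had entries for 8 of the 9 genes, without Cd4. Capitals mark matches, on either strand, to letters known from the sites of 3 families of factors active in T cells. For the ETS family the letters searched were AGGAAG or else CGGAAG. For the GATA family they were AGATAA or else AGATAG, or else TGATAA, or else TGATAG. For the RUNX family they were TGTGGT or else TGCGGT.
Cd3g promoter, chr8:54183869-54184168, strand -: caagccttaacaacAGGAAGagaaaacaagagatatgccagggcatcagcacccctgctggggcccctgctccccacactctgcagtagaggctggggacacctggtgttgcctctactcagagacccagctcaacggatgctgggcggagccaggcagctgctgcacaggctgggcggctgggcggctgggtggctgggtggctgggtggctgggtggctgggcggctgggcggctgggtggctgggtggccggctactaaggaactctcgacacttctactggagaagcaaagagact
Cd3d promoter, chr8:54185269-54185568, strand +: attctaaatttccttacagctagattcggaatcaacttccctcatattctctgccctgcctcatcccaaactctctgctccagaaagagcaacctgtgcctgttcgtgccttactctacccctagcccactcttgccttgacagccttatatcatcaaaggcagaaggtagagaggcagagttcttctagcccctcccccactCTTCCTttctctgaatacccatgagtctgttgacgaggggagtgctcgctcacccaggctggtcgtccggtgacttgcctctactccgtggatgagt
Cd3e promoter, chr8:54211721-54212020, strand -: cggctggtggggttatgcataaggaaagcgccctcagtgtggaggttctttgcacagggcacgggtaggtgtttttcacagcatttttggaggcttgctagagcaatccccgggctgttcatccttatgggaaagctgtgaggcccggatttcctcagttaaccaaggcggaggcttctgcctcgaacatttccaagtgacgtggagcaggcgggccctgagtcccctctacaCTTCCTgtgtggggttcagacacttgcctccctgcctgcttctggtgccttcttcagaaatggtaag
Lck, start that lies farther upstream, promoter, chr5:147201218-147201517, strand -: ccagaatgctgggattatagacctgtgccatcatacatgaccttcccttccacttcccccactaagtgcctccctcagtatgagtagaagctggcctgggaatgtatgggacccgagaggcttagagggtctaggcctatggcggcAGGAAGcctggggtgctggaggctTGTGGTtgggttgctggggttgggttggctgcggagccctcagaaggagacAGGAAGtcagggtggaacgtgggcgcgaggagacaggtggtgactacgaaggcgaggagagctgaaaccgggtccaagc
Cd8a promoter, chr4:104923866-104924165, strand +: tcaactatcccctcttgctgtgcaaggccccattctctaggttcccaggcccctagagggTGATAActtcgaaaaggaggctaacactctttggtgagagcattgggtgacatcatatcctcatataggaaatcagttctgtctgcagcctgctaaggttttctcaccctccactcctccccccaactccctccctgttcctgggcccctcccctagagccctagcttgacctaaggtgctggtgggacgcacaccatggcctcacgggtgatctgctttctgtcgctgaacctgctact

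Cd3g and Cd3d lie next to each other on chromosome 8, on opposite strands, with Cd3e on the same chromosome. Each of the 3 CD3 promoters held 1 ETS-type match, at position -236 in Cd3g, -47 in Cd3d and -17 in Cd3e, counted from the annotated start. The promoter of the Lck start farther upstream held 2, at -104 and -29, with a RUNX-type match at -80, and that of the other Lck start held 1, at -77. Icos held an ETS-type match at -59 and a RUNX-type match at -83. Cd8a, Cd28 and Gata3 held no ETS-type match in this window, and each held 1 GATA-type match, at -190, -235 and 27. Cd28 also held RUNX-type matches at -120 and -31. Over all 33469 promoter entries, 45.5% held an ETS-type match, 30.3% a GATA-type match and 22.9% a RUNX-type match. These are matches of short letter strings and were not tested against the levels.

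Levels are log2 values as the authors deposited them, and the mean level of a member probe set ranged from 6.23 to 10.29. Brightness depends on the probes as well as on the transcript, so levels of different probe sets were set only against the distribution of the array, whose 25th percentile was 6.22, median 6.6 and 75th percentile 7.13. The single probe sets of the chains Cd3g and Cd3d, at 10.29 and 9.46, lay at percentiles 98.9 and 98.1 of all probe sets. Lck, at 9.96, and the brighter Cd3e probe set, at 9.87, lay at 98.7 and 98.6. The 3 probe sets of Cd8a had levels of 8.66, 8.19 and 7.52, at percentiles 96.2, 93.8 and 85.4.

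The remaining probe sets reached from the bright end down to the middle of the array and, for Cd28, near its 25th percentile. The second Cd3e probe set had a level of 7.96, at percentile 91.8, and the 3 probe sets of Icos had levels of 7.86, 7.11 and 6.5, at percentiles 90.7, 74.4 and 43.6. Gata3 had levels of 6.81 and 6.77, at percentiles 61.5 and 59.5. Cd4 had a level of 6.74, at percentile 57.8, and Cd28 one of 6.23, at percentile 26.1. Whether such dim probe sets stood above background on single arrays is not known from the table, which gives no background.

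The deposited values of a probe set hardly differed between arrays. The median SD of all probe sets over the 8 arrays was 6.07 millionths of a log2 unit, so differences are written here in millionths of a log2 unit, as deviations from the mean of the 8 arrays. They cannot be read as log2 ratios of RNA amount, and no fold change is given. The 15 member probe sets fell into 7 with an SD from 27.4 to 142 millionths and 8 with an SD from 2.36 to 10.1 millionths. The line between them, at 25 millionths, was drawn after the values were seen, and 14.5% of all probe sets lay above it. The wide probe sets were those of Cd3g, Cd3d and Lck, the brighter one of Cd3e, the 2 brighter ones of Cd8a and the brightest one of Icos. Those of Cd4, Cd28 and Gata3 and the dimmer ones of Cd3e, Cd8a and Icos were narrow. Spread went with level over most of the array, but not at its brightest end. The median SD was 4.01 millionths for the 1553 probe sets around a level of 5.67 and 51.2 for the 466 around 9.55. It was 47.7 for the 155 around 10.83 and 7.78 for the 156 around 12.82. Set against probe sets of like level, those of Cd3g, Cd3d, Lck, Cd28 and Icos and both wide ones of Cd8a lay above the median SD. Those of Cd3e, Cd4 and Gata3 and the dimmest one of Cd8a lay below it.

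**Figure D1:**
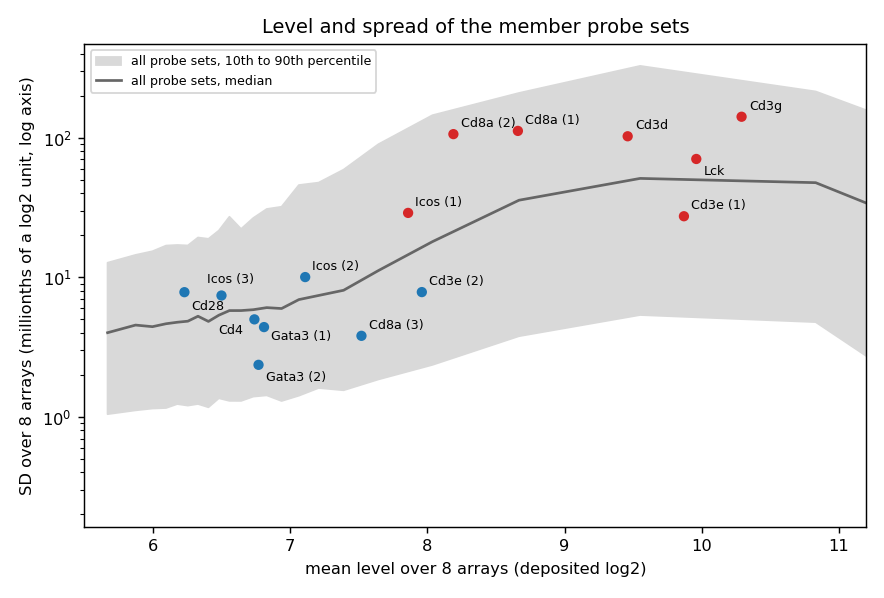
Mean level (x axis, deposited log2) and SD over the 8 arrays (y axis, millionths of a log2 unit, log axis) of the 15 member probe sets, red for wide and blue for narrow, numbered from the brightest where a gene has several; the grey band and line are the 10th to 90th percentile and the median of all probe sets of like level. The 7 red points lie between 27.4 and 142 and the 8 blue points between 2.36 and 10.1.

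Among the receptor chains, Cd3g, the gamma chain of CD3, had the widest range. Its deviations were 89.7, 73.7, -228.9 and 243.4 millionths in normal replicates 1 to 4 and 6.7, -57.7, -107.7 and -19.2 in high-fat replicates 1 to 4. The normal group thus held both the lowest array, replicate 3, and the highest, replicate 4, and the high-fat arrays lay between them. The delta chain Cd3d had deviations of 76.5, 83.8, -127.5 and 166.4 in the normal arrays and -32.0, 0.3, -114.3 and -53.1 in the high-fat arrays. Normal replicates 3 and 4 were again the lowest and the highest, and the groups overlapped. The brighter probe set of the epsilon chain Cd3e had deviations of 27.4, 21.3, -48.5 and 15.9 in the normal arrays and -23.5, 26.5, -7.4 and -11.7 in the high-fat arrays. Normal replicate 3 stood alone at the low end, and the 3 other normal arrays were all among the 4 highest.

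The second Cd3e probe set did not follow that pattern. Its deviations were 6.6, 5.4, 9.6 and 1.7 in the normal arrays and -6.2, 3.6, -10.4 and -10.2 in the high-fat arrays. Normal replicate 3, the lowest array for the brighter probe set, was the highest here, and 1 high-fat array lay inside the normal range.

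The coreceptor Cd8a and the kinase Lck repeated the pattern of Cd3g and Cd3d. The brightest Cd8a probe set had deviations of 42.2, 102.6, -215.3 and 159.2 in the normal arrays and -41.7, 13.9, -41.5 and -19.5 in the high-fat arrays. The second Cd8a probe set had 26.2, 49.7, -161.8 and 132.5 in the normal arrays and -85.7, 139.5, -63.2 and -37.3 in the high-fat arrays. Its highest array was high-fat replicate 2, which lay near the middle for the brightest one. Lck, the kinase that starts CD3 signalling, had deviations of 2.7, 30.0, -139.0 and 108.3 in the normal arrays and -31.3, 31.2, -22.2 and 20.4 in the high-fat arrays. For these 3 probe sets the high-fat arrays lay inside the range of the normal arrays, except high-fat replicate 2 for the second Cd8a probe set. The third Cd8a probe set varied only from -4.4 to 6.1.

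The coreceptor Cd4 varied far less than Cd8a. Its deviations were -1.6, -5.6, 4.0 and -1.0 in the normal arrays and 5.0, 3.0, 4.5 and -8.3 in the high-fat arrays. High-fat replicate 4 was the lowest and the 3 other high-fat arrays were among the 4 highest. The costimulator Cd28 had deviations of -5.7, 9.3, 10.3 and -0.6 in the normal arrays and 5.1, -11.9, -0.2 and -6.2 in the high-fat arrays. Its lowest array was high-fat replicate 2 and its highest normal replicate 3, the array with the lowest Cd3g, Cd3d, Cd8a and Lck.

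The brightest probe set of Icos, an inducible relative of Cd28, had deviations of 41.0, 32.1, -27.1 and 14.8 in the normal arrays and -35.3, 9.7, -28.9 and -6.3 in the high-fat arrays. The 3 highest arrays were normal and the 2 lowest high-fat, with normal replicate 3 close to them. The second Icos probe set had 13.2, -0.3, -0.9 and 11.3 in the normal arrays and -13.0, 8.1, -9.8 and -8.6 in the high-fat arrays. The third Icos probe set ranged from -13.8 to 12.0, and both ends were normal arrays. The 2 probe sets of Gata3 ranged from -5.1 to 7.7 and from -1.7 to 5.2, with a normal array highest in both.

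**Figure D2:**
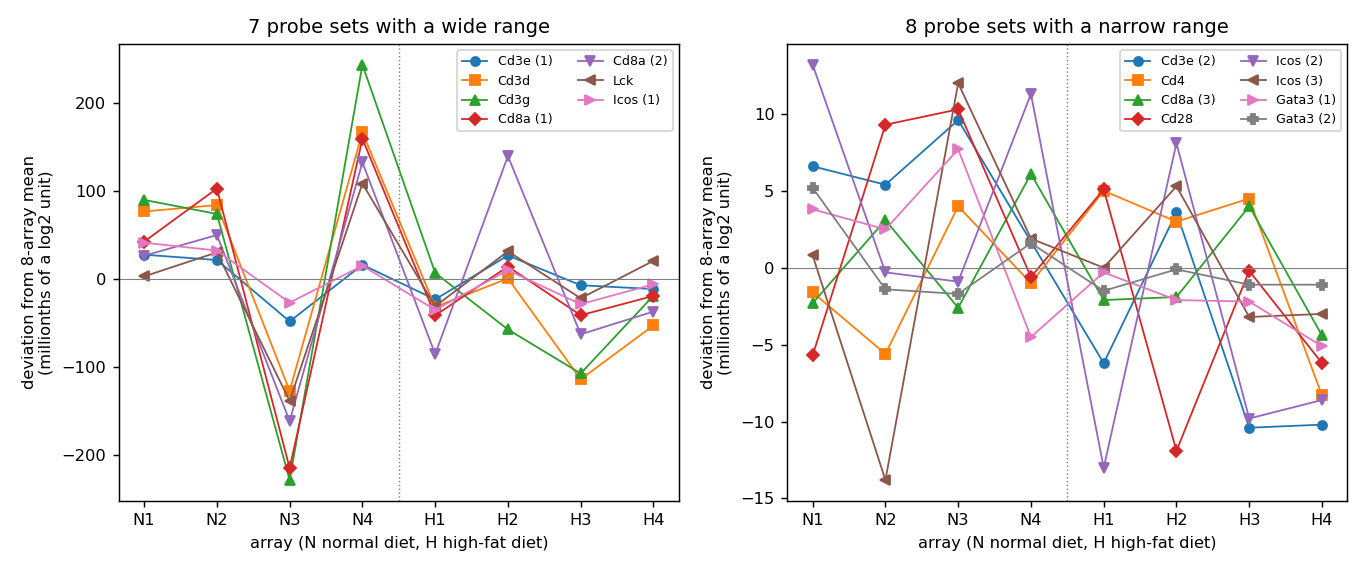
Deviation of each member probe set from its mean over the 8 arrays (y axis, millionths of a log2 unit, a different scale in each panel) by array (x axis, N1 to N4 normal diet, H1 to H4 high-fat diet), wide probe sets at left and narrow ones at right; lines only join the points of a probe set. At left normal replicate 3 is the lowest array for 6 of 7 probe sets and normal replicate 4 the highest for 4 of 7.

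Probe sets of the same gene agreed for the brighter pair of Cd8a and, by rank, of Icos, and not detectably for Cd3e and Gata3. Pearson r over the 8 arrays was computed for all 8 pairs of probe sets of a member, with exact permutation tests, two-sided, adjusted over the 8 pairs by Benjamini-Hochberg. The 2 brighter Cd8a probe sets had r = 0.85 (exact p = 0.00603, adjusted p = 0.0482) and rho = 0.86 (exact p = 0.0107, adjusted p = 0.0429). Without the 2 arrays farthest from the median, taken for each pair from its brighter probe set, r was 0.63. The call was lost in 7 of 8 repeats that left out 1 array, all but that without high-fat replicate 2. The 2 brighter Icos probe sets had r = 0.78 (exact p = 0.0304, adjusted p = 0.121) and rho = 0.90 (exact p = 0.00456, adjusted p = 0.0365), and r = 0.58 without the 2 farthest arrays. The third Icos probe set had r of -0.36 and 0.24 with the other two, and the third Cd8a probe set 0.58 and 0.40 with the other two, none with an adjusted p under 0.375 in the exact test.

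The 2 probe sets of Cd3e had r = 0.20 (exact p = 0.645, adjusted p = 0.737) and rho = 0.21 (exact p = 0.619, adjusted p = 0.707). Without the 2 arrays farthest from the median of the brighter probe set, r was 0.98, so the low value rested on those arrays. The 2 probe sets of Gata3 had r = 0.070 (exact p = 0.882, adjusted p = 0.882). Over all 9597 same-gene pairs of probe sets on the array the median r was 0.18. It was 0.75 over the 285 pairs in which both probe sets were in the brightest 10%, and 0.16 over the 7880 pairs in which neither was.

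Between genes, each represented by its brightest probe set, the 36 pairs of members split by the width of their ranges. All 15 pairs among Cd3e, Cd3d, Cd3g, Cd8a, Lck and Icos had a positive r, from 0.58 to 0.95 with a median of 0.81. They stayed positive when any 1 array was left out. Of the 18 pairs of these 6 genes with Cd4, Cd28 or Gata3, 17 had a negative r, from -0.73 for Lck with Gata3 to -0.16 for Cd3d with Cd28, and Icos with Gata3 had 0.053. The negative signs rested partly on 1 array: without normal replicate 3, 8 of the 18 were above 0, up to 0.49, and without any other single array 0 to 2 were. Without the 2 arrays farthest from the median of 1 gene of the pair, which differ between pairs, 8 were, up to 0.80. The 3 pairs among Cd4, Cd28 and Gata3 had r from 0.15 to 0.58. Because the split followed the width of the ranges, which was drawn from the same values, it is a description. It also changed with the scaling. With each array centred on its median all 36 pairs had a positive r. Centring takes the same amount from every probe set of an array. The array medians lay from -80.1 to 137 millionths around their mean, against SDs of 2.36 to 10.1 for the narrow probe sets. A positive r was thus largely fixed by the centring and does not show covariation of the genes. With quantile normalization on top 5 pairs had a positive r and none passed the test below. A probe set that does not vary over the arrays gives no r. With quantile normalization 4 of the 9 genes had equal group means, so these counts may cover fewer than 36 pairs and do not show that a relation was lost.

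After adjustment over the 36 pairs, 5 pairs passed the exact permutation test of Pearson r, all of them among the wide genes. Cd8a with Lck had r = 0.95 (exact p = 9.67e-04, adjusted p = 0.0161), and Cd3d with Cd3g had r = 0.94 (exact p = 4.96e-04, adjusted p = 0.0161). Cd3g with Cd8a had r = 0.93 (exact p = 0.00238, adjusted p = 0.0214), Cd3d with Cd8a had r = 0.90 (exact p = 0.00134, adjusted p = 0.0161) and Cd3e with Cd8a had r = 0.85 (exact p = 0.00655, adjusted p = 0.0471). In the same order rho was 0.88, 0.90, 0.81, 0.93 and 0.76, with exact p of 0.00724, 0.00456, 0.0218, 0.00223 and 0.0368 and adjusted p of 0.0869, 0.0821, 0.131, 0.0804 and 0.165. None of the 36 passed by rho.

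The relation of Cd3d with Cd3g and with Cd8a was the least changed among these 5 without the 2 arrays farthest from the median, with r = 0.89 for both. Those arrays were taken from the first-named gene of each pair, so pairs with a different first gene need not have lost the same arrays. For Cd8a with Lck it was then 0.68, for Cd3g with Cd8a 0.71 and for Cd3e with Cd8a 0.56. Cd3g with Lck fell from 0.87 to 0.25 and rested on those arrays. Without normal replicate 3, the array with the lowest levels, r was 0.94 for Cd3d with Cd3g, 0.94 for Cd3d with Cd8a, 0.88 for Cd3g with Cd8a, 0.87 for Cd8a with Lck and 0.66 for Cd3e with Cd8a, and 1 pair passed over all 36. No pair passed without normal replicate 2, where the 5 had r from 0.83 to 0.97, or without normal replicate 4, where they had r from 0.85 to 0.93, and 2 passed without normal replicate 1. On deviations from the group means, r for these 5 pairs was between 0.84 and 0.97, and no pair passed a test over the 576 orders within groups after adjustment. With 576 orders and 36 pairs a single pair could not pass on its own whatever its r, so this does not show that the relation was lost.

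**Figure D3:**
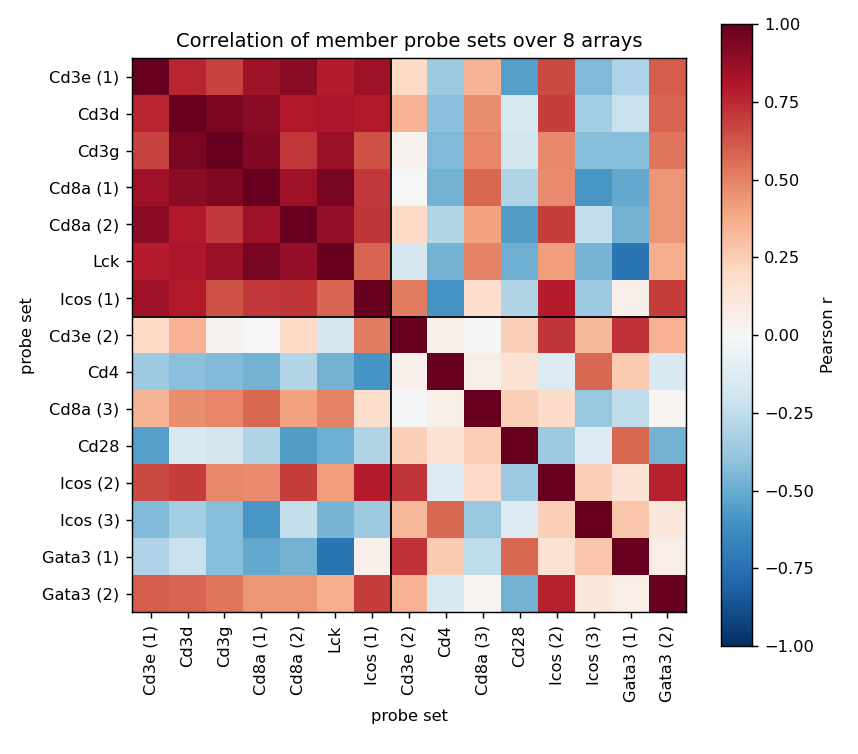
Pearson r over the 8 arrays (colour, -1 to 1) for every pair of the 15 member probe sets; black lines separate the 7 wide probe sets (top left block) from the 8 narrow ones. The 21 pairs in the wide block run from 0.58 to 0.95, and the 28 pairs among narrow probe sets from -0.47 to 0.77.

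Genes with a wide range resembled each other on these arrays beyond T cell genes, which sets the scale for these values. Over all pairs of the 2703 genes whose brightest probe set had an SD of at least 25 millionths, the median r was 0.37 and 36.2% of pairs reached 0.58. The wide members had a median r from 0.46 to 0.58 with the other wide genes, against 0.024 to 0.066 with all other genes. The narrow members leaned the other way, with a median r of -0.55 for Cd4, -0.38 for Gata3 and -0.29 for Cd28 with wide genes. For some members few genes came closer than another member: 11 of 14216 other genes were as like Cd3g as Cd3d was, with Cd3d counted, and 17 were as like Cd3d as Cd3g was. For Cd8a and Lck these counts were 19 and 25. For Cd3e with Icos, the most like members of each other, they were 451 and 244. For the narrow members the most like member was no closer than many other genes, with 4966 genes at or above it for Cd4, 1305 for Gata3 and 1151 for Cd28.

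The genes most like the mean scaled level of the 9 members, each gene first centred and divided by its SD, were Cfap97 (r = 0.99), Tdrd3 (0.97), Prim1 (0.97), Sytl1 (0.97) and Smco4 (0.95). Prim1 encodes the catalytic subunit of DNA primase and Sytl1 a synaptotagmin-like protein of vesicle traffic. Cfap97 had deviations of 25.1, 37.3, -27.1 and 36.8 in the normal arrays and -11.4, 0.3, -31.0 and -29.9 in the high-fat arrays. With 8 arrays and 14208 genes compared, 61 genes had an r of at least 0.9. The median r of all genes was 0.038, and that of the 39 measured genes of the T cell pathway lists was 0.61, of which 4 reached 0.9. No value for genes of like width is given for this mean level. With other wide genes, single wide members had a median r from 0.46 to 0.58 and narrow members from -0.55 to -0.29. The likeness of the pathway genes can therefore not be called particular to T cell genes.

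Between the diets, no member probe set was called. By limma, 0 of 15 passed an adjusted p of 0.05, beside 0% of all 31042 probe sets (0 called), and each had an adjusted p of 1. At an unadjusted p under 0.05 there was 1, the dimmer Cd3e probe set, beside 2.25% of all probe sets (1.3% lower, as this one was). The groups did not overlap in 0 of 15, beside 1.44% of all. In whole blood, fewer cells of a type and less RNA per cell cannot be told apart.

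The direction was mostly lower in the high-fat group. On the deposited values 14 of 15 probe sets had a lower mean in the high-fat group and Cd4 a higher one, where 53.4% of all probe sets were lower; with each array centred on its median all 15 were lower, and with quantile normalization on top 6 were lower, 3 higher and 6 equal. The median difference was -0.62 SDs, as multiples of the pooled SD within groups, against -0.048 over all probe sets. After centring it was -1.25 against -1.20 over all probe sets, of which 30537 were lower, and with quantile normalization both were 0. On the deposited values it was -1.28 without normal replicate 3 and -0.19 without normal replicate 4, the arrays at the low and the high end of the wide probe sets. Centring shifted each difference by -66.0 millionths, which is more than the difference of 13 of the 15 probe sets, because the median of high-fat replicate 4 lay 137 millionths above the mean of the array medians and that of normal replicate 3 lay at -80.1.

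The differences were as follows, as high-fat minus normal in millionths with their standard errors from limma (n = 4 and 4, adjusted p = 1 for each). The chains had -99.6 ± 63.1 for Cd3d, -89.0 ± 95.8 for Cd3g, -8.05 ± 19.5 for the brighter Cd3e probe set and -11.6 ± 3.53 for the dimmer. Without normal replicate 3 they were -158.7 for Cd3d, -180.1 for Cd3g and -25.6 for the brighter Cd3e probe set, and without normal replicate 4 they were -60.7, -22.7 and -4.07. The brighter Cd3e probe set came nearest to 0, at -0.244, without normal replicate 1, and leaving out normal replicate 2 or high-fat replicate 1 or 2 also moved it, to -2.30, -1.55 and -18.2. The dimmer Cd3e probe set thus had the largest difference relative to its spread, -2.25 within-group SDs (unadjusted p = 0.0138 by limma, two-sided exact permutation p = 0.0571, where the smallest possible is 0.0286), while the brighter stood at -0.28. Cd3d and Cd3g stood at -1.05 and -0.62.

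For the coreceptors, the difference was 2.09 ± 3.59 for Cd4, or 0.40 within-group SDs, and it turned to -63.9 with each array centred on its median; without 1 array it lay between 0.554 (normal replicate 2) and 5.21 (high-fat replicate 4). Cd8a had -44.4 ± 78.7, -23.3 ± 75.8 and -2.17 ± 2.72 for its 3 probe sets from bright to dim, or -0.37, -0.20 and -0.55 within-group SDs. Lck had -0.986 ± 50.7, or -0.013 within-group SDs, the smallest of the members on that scale. Its sign changed when normal replicate 2 or 4 was left out, and likewise for high-fat replicate 1 or 3. Leaving out normal replicate 4 also turned the 2 brighter Cd8a probe sets, to 1.31 and 17.0, and leaving out high-fat replicate 1 turned the second of them to 1.40.

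For the costimulators, Icos had -30.4 ± 17.2, -11.7 ± 5.72 and -0.430 ± 5.38 from bright to dim, or -1.17, -1.37 and -0.054 within-group SDs, and Cd28 had -6.61 ± 5.08, or -0.88. The transcription factor Gata3 had -4.83 ± 2.68 and -1.88 ± 1.72, or -1.25 and -0.81. Without 1 array, Cd28 lay between -9.62 and -3.76 (high-fat replicate 2), and the Gata3 probe sets came nearest to 0 without normal replicate 3, at -3.06, and without normal replicate 1, at -0.452. The spread was unequal between the groups to a varying degree in the wide probe sets. The SD of Cd3g was 198 millionths in the normal and 49.8 in the high-fat group. In the same order it was 165 and 26.2 for the brightest Cd8a probe set, 103 and 30.9 for Lck, and 125.1 and 48.3 for Cd3d. The groups were nearer each other for the brighter Cd3e probe set (35.35 and 21.49), the brightest Icos one (30.2 and 20.75) and the second Cd8a one (124.3 and 102.7). Normal replicates 3 and 4 were the ends of the normal range for Cd3g, Cd3d, Lck and both brighter Cd8a probe sets. The difference in spread was not tested.

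**Figure D4:**
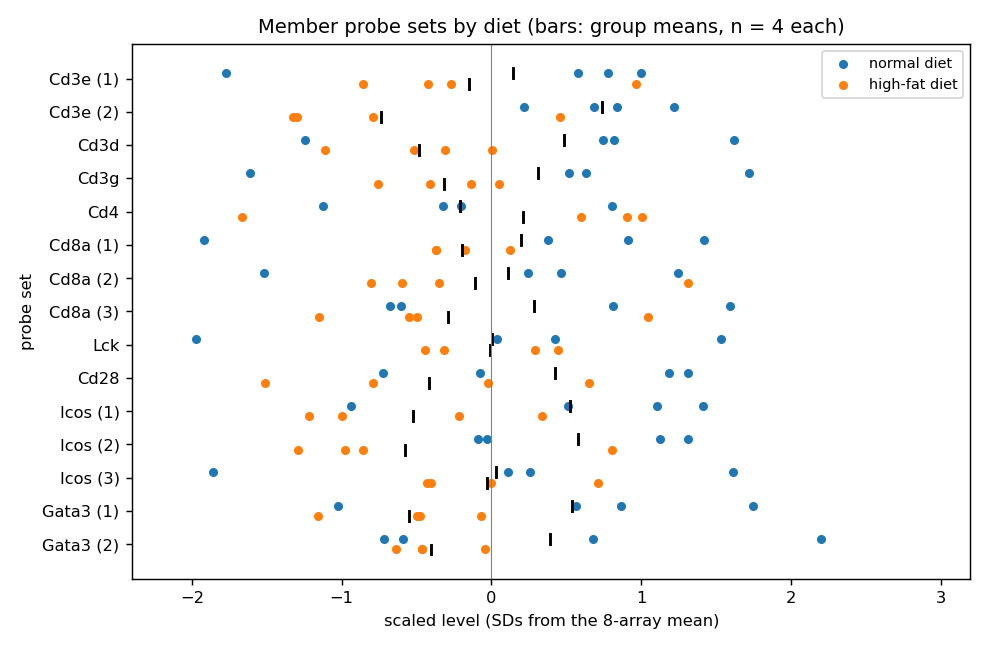
Scaled level (x axis, SDs from the mean of the 8 arrays) of the 15 member probe sets (y axis) in the 4 normal arrays (blue) and the 4 high-fat arrays (orange); black bars are group means. The groups overlap in all 15, and the high-fat mean is lower in 14, Cd4 being the exception.

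Other genes of T cell receptor signalling and costimulation, 53 in 6 groups, had a probe set for 39. By limma, 0 were called in either direction, with 1 at an unadjusted p under 0.05, beside 284 of all 14217 genes. On the deposited values 24 were lower in the high-fat group and 15 were higher; with each array centred 37 were lower and 2 higher, and with quantile normalization on top 16 were lower, 10 higher and 13 equal. The median was -0.19 within-group SDs against -0.037 over 14217 genes, of which 7471 were lower. After centring it was -1.21 against -1.21 over all genes, of which 13879 were lower, and with quantile normalization both were 0. The group listed as receptor chains and coreceptor held Cd247, Cd8b, Cd2, Cd5, Cd6 and Ptprc and none of the members. Of these, 5 of 6 were lower. Cd5, an inhibitory surface receptor of T cells, stood at -0.52 within-group SDs and Ptprc, the phosphatase CD45, at 0.0089. Of the kinases, adaptors and signalling enzymes, 10 of 18 were lower, with the adaptor Skap1 at -0.72 and the exchange factor Vav1 at 0.94. Of the costimulatory and inhibitory receptors, 3 of 4 were lower, with Cd40lg, the CD40 ligand, at -1.62 (unadjusted p = 0.0471 by limma, adjusted p = 1) and the inhibitory receptor Ctla4 at 0.14. Cd80 and Cd86, which both bind CD28 and CTLA4, stood at -0.14 and 0.13.

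Of 5 T cell transcription factors 3 were lower, with Bcl11b at -0.71 and Runx3, which is also active in cytotoxic cells, at 1.14. Of 3 survival and homing receptors 2 were lower, with the lipid receptor S1pr1 at -1.11 and the interleukin receptor Il7r at 0.29. Without normal replicate 3 the median over the 39 genes was -0.77, and without normal replicate 2 it was -0.0039. Over the 8 arrays the mean scaled level of all 9 members had r = 0.91 with S1pr1, 0.89 with Skap1, 0.83 with Bcl11b and 0.81 with Cd5. It had r = 0.018 with Vav1 and -0.32 with Runx3. Of the 4 genes with the higher r, Bcl11b had its lowest and highest values in normal replicates 3 and 4, as Cd3g and Cd3d had, while S1pr1 was lowest in high-fat replicate 3 and Skap1 and Cd5 in high-fat replicate 4.

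As mean scaled levels of whole lists, that of Cd247, Cd8b, Cd2, Cd5, Cd6 and Ptprc stood at -1.56 in normal replicate 3 and between 0.54 and 0.81 in the other normal arrays. The kinases and adaptors stood at -1.37 against 0.33 to 0.59. The costimulatory and inhibitory receptors and the ligands of Cd28, Ctla4 and Icos went the other way, with their highest values, 1.33 and 0.97, in normal replicate 3. The 7 measured B cell markers, of which 6 had a lower mean in the high-fat group (3 with quantile normalization), were lowest in high-fat replicate 3, at -1.11, and stood at -0.73 in normal replicate 3 and -0.64 in normal replicate 1. Markers of natural killer and cytotoxic cells, 13 of 13 measured, stood at 2.14 in high-fat replicate 4 and between -0.60 and 0.06 in the other arrays, and 13 of 13 had a higher mean in the high-fat group (10 after centring, 12 with quantile normalization). Monocyte markers, 10 of 10 measured, stood at 1.83 in high-fat replicate 4 and between -0.54 and 0.04 elsewhere, and 10 of 10 had a higher mean in the high-fat group (5 after centring, 8 with quantile normalization). On that array the brightest Cd8a probe set stood at -19.5 millionths, inside its range, and Cd4 at -8.3, its lowest value.

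Erythroid markers ranged from -0.59 to -0.33 in the normal arrays and from -0.19 to 1.07 in the high-fat arrays, with 7 of 7 higher (4 after centring, and 2 higher, 2 lower and 3 equal with quantile normalization). Neutrophil markers ranged from -0.82 to 0.61 and from -0.96 to 0.74, with 7 of 9 higher (1 after centring, 4 with quantile normalization). Platelet markers ranged from -0.34 to 0.62 and from -1.51 to 0.52, with 5 of 7 lower (7 after centring, 2 with quantile normalization). Those of eosinophils, basophils and mast cells ranged from -0.92 to 0.15 and from -0.05 to 0.71, with 6 of 7 higher (0 after centring, 1 with quantile normalization). After centring 30537 of all 31042 probe sets were lower in the high-fat group. No marker of these lists was called by limma. The part of these other cells in the members' levels was not tested.

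**Figure D5:**
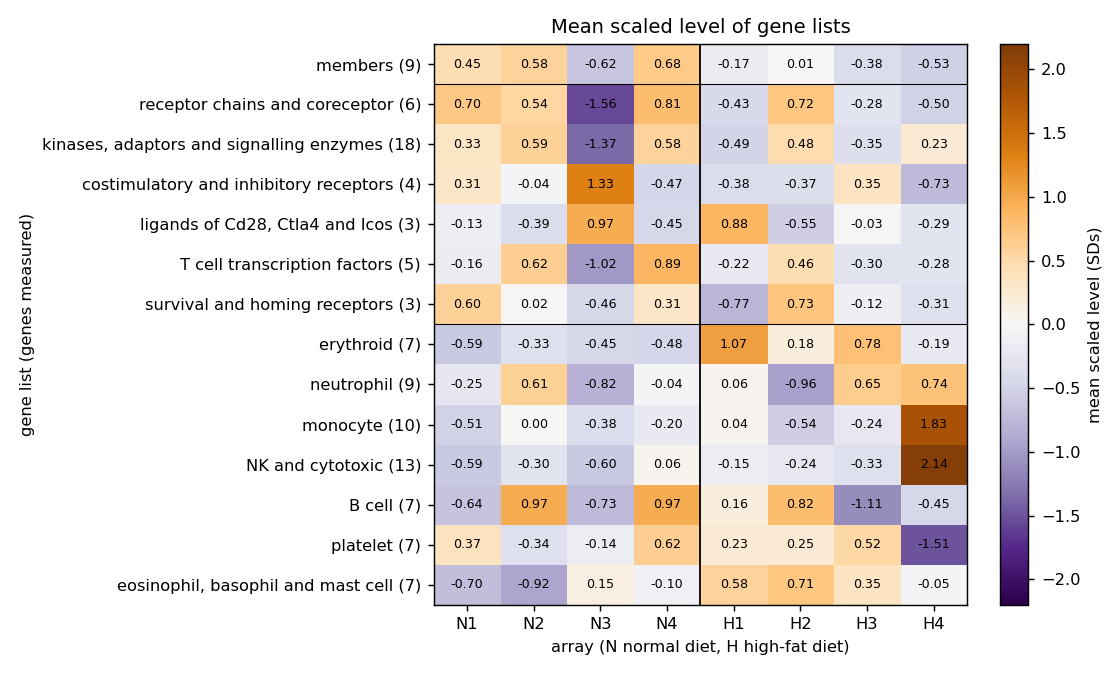
Mean scaled level (colour and printed value, SDs from the mean of the 8 arrays) of the members, 6 pathway groups and 7 marker lists (y axis, genes measured in brackets) in each array (x axis). The group labelled receptor chains and coreceptor, which holds none of the members, and the kinases are lowest in normal replicate 3, at -1.56 and -1.37. The cytotoxic and monocyte lists are highest in high-fat replicate 4, at 2.14 and 1.83.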

How the data were processed

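Blood RNA was measured on 8 Affymetrix 3' arrays from 200 ng of total RNA, per the labels' protocols. The authors deposited a table of 31099 probe sets, whose values read as log2 intensities from 5.19 to 15.25; for background correction, normalization and probe summary the method was not given in the sources used here. Of these, 57 control probe sets were left out. The platform annotation gave 1 gene symbol for 20826 probe sets, several for 436 and none for 9780. Groups came from the sample titles.

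High-fat was tested against normal with limma 3.58.1 in R 4.3.3 (lmFit, eBayes, two-sided, no covariates), adjusted over 31042 probe sets, threshold 0.05. The fit was tested on simulated data with shifts of known size, all larger in within-group SDs than the difference of any member probe set. It thus does not tell whether differences of the size seen here could be called. Correlations were tested over all 40320 orders of the arrays and single differences over the 70 assignments (Python 3.11.15). For lists, a gene was represented by its brightest probe set. The named genes were all member probe sets, the gene with the smallest p in each direction of each pathway group, and the 5 genes most like the members. Members, lists and tests were chosen with earlier results of these data known. The number of arrays limits the precision. Alternatives were quantile normalization, median centring, a filter on the dimmest 25%, eBayes with trend and robust, a replicate block, leaving out each array, and gene means of scaled probe sets.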

Additional observations from a re-analysis of the deposited data

Results flagged for a closer look

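Of 30 groups of 4 arrays, 2 had an array far from the other 3, where chance gives about 1 in 20. The brighter Cd3e probe set had normal replicate 3 lowest, with a gap to the next array of 0.849 of the range of the normal group. Cd4 had high-fat replicate 4 lowest, with a gap of 0.847 of the range of the high-fat group.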

How the results depend on the processing

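No member probe set was called under any alternative run, and no pathway gene under those run for them (both scalings, the replicate block and leaving out each array). No probe set of the array was called, except with quantile normalization on top, where 32 of 31042 were called. Deviations of same-numbered replicates had r from -0.12 (number 1) to 0.37 over all probe sets, so the numbers were not taken as pairs; with the replicate block the median member difference was -0.70 within-group SDs and no call changed. Centring put the median over member probe sets at -1.25 and over pathway genes at -1.21 within-group SDs, near the -1.20 of all probe sets. It turned Cd4 to -63.9 millionths. Quantile normalization turned the third Cd8a probe set to 52.6 and Lck to 697. These exceed the whole deposited ranges of the 2 probe sets, 10.4 and 247 millionths. Their signs thus say nothing about the direction in the deposited values. Leaving out 1 array gave differences from -47.5 to 35.0 for Lck, from -5.10 to 3.49 for the third Icos probe set, from -124 to 1.31 for the brightest Cd8a probe set and from -81.1 to 17.0 for the second. Among the 8 same-gene pairs, 1 passed and 7 had r above 0; with quantile normalization 0 passed and 4 had r above 0, with centring 6 passed, and leaving out 1 array gave 0 to 1. Among the 36 gene pairs, 5 passed and 19 had r above 0. The number that passed was 0 on deviations from the group means, 0 with quantile normalization (5 above 0), 17 with centring (36 above 0), 1 on the mean of scaled probe sets, 0 to 4 without 1 array, and 0 without both normal replicates 3 and 4, an alternative chosen after seeing the data. With fewer arrays the exact test has fewer orders. On deviations from the group means, and without both normal replicates 3 and 4, a single pair could not pass on its own after adjustment over 36 pairs, whatever its r. With quantile normalization, pairs with a probe set that did not vary had no r, so its counts may cover fewer pairs. Centring moves all probe sets of an array together, and the array medians lay up to 137 millionths from their mean. That is far more than the narrow probe sets varied. The pairs that passed with centring thus do not measure agreement of probe sets or covariation of genes. For the other changes the cause was not tested. The table gives no signal over background, so what the dim probe sets of Cd4, Cd28, Gata3 and Icos measure above it is not known.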
